A study of Mus musculus with 24 samples.

Results

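Collagens and laminins are the proteins from which connective tissue and the basement membranes of blood vessels, meninges and glia are built. The members described here were all genes of the mouse feature table with a symbol of the form Col, number, a, number, or Lama, Lamb or Lamc followed by a number, that had at least 50 raw UMIs (unique molecular identifiers, 1 per captured mRNA molecule) summed over all libraries. Of 54235 genes in the table, 55 had such a symbol and 53 reached the threshold. Just inside it lay Col28a1 with 124 UMIs and Col2a1 with 136. Just outside it lay Col6a6 with 43 and Col10a1 with 28. The most abundant members over all cells were Col6a1 with 15920 UMIs, Col25a1 with 15658, Col4a1 with 13092, Lamc1 with 12219 and Col4a2 with 11671.

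Collagen chains fold into triple helices. Fibrillar collagens such as types I, III and V form the cables of connective tissue, type IV forms the sheet-like network of basement membranes, and membrane-spanning collagens such as types XIII, XXIII and XXV sit in the cell surface. Laminins are heterotrimers of an alpha, a beta and a gamma chain that polymerise at the cell surface and, with type IV collagen, make up the basement membrane that separates endothelium, mural cells and astrocyte endfeet around every brain vessel.

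Single-cell 3′ RNA libraries (10x Genomics) came from 2 mouse brain regions during learning of a forelimb reaching task. Motor cortex came from mice with the activity-dependent driver Fos-CreER and dorsal striatum from mice with Arc-CreER, each with the Ai9 reporter, so region and driver line cannot be told apart. The early group had 2 days of training and the late group 8 days before labelling with 4-hydroxytamoxifen, and untrained controls received the drug alone. Tissue was taken 3 days after labelling, and each library pooled 1 hemisphere side of 2 mice, which gives 24 libraries and 12 pools (2 per stage in either region). The pool was the replicate, and with 2 pools a group its spread includes both animals and preparation. Values of 23 libraries were used: for the striatal control pool numbered 1 the right side was not analysed here.

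Sequence before the RefSeq start was taken for Col1a2, Col3a1 and the head-to-head pairs Col4a1 with Col4a2 and Col4a5 with Col4a6. The levels of these genes are compared further on. Col4a1 and Col4a2 left 0 non-exonic bases. Stretches of the other 4 members are shown, which, like further members, had their highest mean in fibroblast-like cells of both regions. The stretches are from RefSeq (GRCm38.p6), 5′ to 3′ on the gene's own strand, with exonic bases left out. The Col1a2 stretch precedes a RefSeq start at position 4505618, but the GENCODE model of the gene starts at 4504814, so it lies within that model. Capitals mark GGGCGG (an Sp1-type GC box), CCAAT or TATAAA in either orientation, so that a GC box on the opposite strand reads CCGCCC.
Col1a2, chr6:4505370-4505492, plus strand: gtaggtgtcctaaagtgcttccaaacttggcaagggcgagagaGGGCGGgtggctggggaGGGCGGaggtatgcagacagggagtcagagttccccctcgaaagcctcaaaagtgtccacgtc
Col3a1, chr1:45311288-45311537, plus strand: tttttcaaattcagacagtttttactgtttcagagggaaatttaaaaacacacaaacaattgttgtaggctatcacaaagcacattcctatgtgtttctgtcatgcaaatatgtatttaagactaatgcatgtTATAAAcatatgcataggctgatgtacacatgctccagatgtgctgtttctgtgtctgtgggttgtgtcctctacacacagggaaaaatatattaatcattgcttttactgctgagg
Col4a5, chrX:141475169-141475384, plus strand: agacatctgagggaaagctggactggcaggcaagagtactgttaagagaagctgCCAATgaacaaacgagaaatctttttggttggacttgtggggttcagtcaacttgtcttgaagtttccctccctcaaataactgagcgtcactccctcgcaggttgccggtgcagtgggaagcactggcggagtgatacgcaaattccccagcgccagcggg
Col4a6, chrX:141474077-141474326, minus strand: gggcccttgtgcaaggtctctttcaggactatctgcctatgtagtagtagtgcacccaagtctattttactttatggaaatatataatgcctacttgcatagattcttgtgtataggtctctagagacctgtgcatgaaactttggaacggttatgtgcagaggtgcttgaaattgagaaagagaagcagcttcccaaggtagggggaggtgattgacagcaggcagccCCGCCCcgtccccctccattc
The starts of Col4a5 and Col4a6 lie 1342 bases apart on chromosome X and point away from each other. Those of Col4a1 and Col4a2 are closer, with 20 bases between them on chromosome 8. These 20 bases are not a gap, because the 2 genes overlap there on opposite strands. Promoters were listed for 38 of the 53 members. In the 250 bases before the start, GGGCGG was present on either strand in 22 of the 38 members (57.9%) and in 32.7% of all 32817 promoters. CCAAT was present in 13 members (34.2%, against 33.8% of all promoters), and TATAAA in 4 (12.4% of all promoters). These matches describe letters only. Not listed were, among others, Col1a1, Col2a1, Col4a3, Col5a2, Col9a3, Col12a1, Col14a1, Col22a1, Col26a1, Lama1, Lama3, Lama4, Lamc1 and Lamc3.

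The libraries held between 5260446 and 30470621 UMIs, and 467 to 6606 cells per library were kept (98612 in all), with medians of 1967 to 5520 UMIs per cell. Cells were clustered within each region without using the members, and clusters were named from marker genes that include none of them. In motor cortex and dorsal striatum the classes held 296 and 273 fibroblast-like, 1621 and 1167 pericyte-like, 1187 and 1162 smooth muscle-like, and 1999 and 1452 endothelial-like cells. Of neurons and glia there were 17583 cortical and 219 striatal glutamatergic neuron-like cells (192 of the latter in the 4 pools with at least 20, which give its levels), 4445 and 1965 GABAergic interneuron-like cells, 19281 striatal spiny projection neuron-like cells, 3021 and 3492 astrocyte-like cells and, in motor cortex, 6006 oligodendrocyte precursor-like cells. The fibroblast-like class had as few as 24 cells in a pool, which limits the precision of its values. The summed level of the 9 fibroblast markers there had a median of 11990 CPM (UMIs scaled by the total of the class in a pool) in motor cortex and 10880 in striatum, but pericyte markers also summed to between 1526 and 5592 CPM, astrocyte markers to between 577 and 1828 and ependymal markers to between 262 and 761.5 over its pools. Their part in the levels of the members was not tested.

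One set of pools stood apart. Libraries of motor cortex control replicate 1 and late replicate 1 and of dorsal striatum control replicate 1 and late replicate 1 shared 2226 cell barcodes with one another and 112 with the other 8 pools, which shared 715 among themselves. For an equal number of barcode pairs compared, these are in the proportion 1.34 to 0.0236 to 0.263. The first 4 pools are called the first barcode set and the other 8 the second. No batch named in the labels held pools of both sets, so a difference between the sets is also one between batches. The labels say that version 2 or 3 of the kit was used without saying which library had which, and all early pools fell in the second set. Many vascular members read lower in the first set. In fibroblast-like cells the pools of the second set all lay above those of the first for 17 of 33 members, against 2.85% of 10175 genes. The same held for 17 of 25 members in pericyte-like cells (10.3% of genes), 10 of 18 in smooth muscle-like cells (9.22%) and 4 of 10 in endothelial-like cells (9.06%), in all 48 of 86 pairs (7.85%). Elsewhere it held for 5 of 13 members in oligodendrocyte precursor-like cells (18.9% of genes), 2 of 8 in glutamatergic (13.6%) and 0 of 8 in GABAergic neuron-like cells (15.1%), 1 of 13 in astrocyte-like (5.48%), 1 of 9 in oligodendrocyte-like (6.82%), 1 of 9 in neuroblast or progenitor-like (6.24%), 1 of 2 in microglia-like (22.1%) and 0 of 1 in perivascular macrophage-like cells (2.15%). The reverse, with all pools of the first set above the second, held for 2 of 25 members and 1659 of 10991 genes in pericyte-like cells. It held for no member in the other classes. Of genes, the share there was lowest in perivascular macrophage-like cells (128 of 8028) and highest in oligodendrocyte precursor-like cells (1165 of 10762). In fibroblast-like cells it was 276 of 10175 and in smooth muscle-like cells 516 of 8793. The median log2 ratio of the second set to the first was 1.36 over the members and -0.02 over all genes in fibroblast-like cells, and 2.16 against -0.21 in pericyte-like cells. It was 1.10 against 0.13 in smooth muscle-like cells and 0.64 against -0.04 in endothelial-like cells. Some classes also lay mostly in different clusters in the 2 sets. In pericyte-like cells of motor cortex a cluster led by Atp13a5 and Abcc9 held 1137 cells of the second set and 13 of the first, and one led by Ifitm1, Higd1b and Cox4i2 held 17 and 454. In striatum 1 pericyte-like cluster held 1055 and 47 and the other 5 and 60. Oligodendrocyte precursor-like and microglia-like cells divided likewise in both regions. The cortical precursor cluster led by Gm21846, Matn4 and Vcan held 3545 cells of the second set and 105 of the first and that led by Pnlip, C1ql1 and Scrg1 held 106 and 1679, while that led by Enpp6 held 415 and 156. The microglia-like cluster led by Gp9, Tmem119 and Ccl6 held 145 and 3243 in motor cortex, and the striatal one led by Gp9, Gngt2 and Crybb1 held 98 and 1407. Cortical astrocyte-like cells divided in part: a cluster led by Gm38255, Gm6145 and Nwd1 held 609 and 70, and one led by Ppp1r3g, Mt2 and Gjb6 held 582 and 1760. Levels are therefore given over all pools with their range, and the counts that set vascular classes against each other are repeated in the second set alone.

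Levels below are CPM of all UMIs of a class in a pool, as mean ± SD over pools (n = 6 unless stated). Each mRNA molecule is counted once from its 3′ end, so values are not scaled by gene length and are compared mainly for 1 gene between cells. Summed over the 53 members, fibroblast-like cells read 9276 ± 3244 CPM in motor cortex and 7771 ± 3415 in striatum. Pericyte-like cells read 2454 ± 1379 and 2510 ± 1386, smooth muscle-like cells 2232 ± 775 and 2149 ± 665, and endothelial-like cells 1064 ± 421 and 956 ± 265. Ependymal-like cells of striatum read 955 ± 133, and oligodendrocyte-like cells read 797 ± 341 in motor cortex (n = 5) and 184 ± 81.7 in striatum (n = 4). Oligodendrocyte precursor-like cells summed to 584 and 634 CPM, astrocyte-like cells to 429 and 386, GABAergic interneuron-like cells to 259.8 and 438, cortical glutamatergic neuron-like cells to 224, spiny projection neuron-like cells to 236, and microglia-like cells to 157 and 151. Perivascular macrophage-like cells were lowest at 34.4 and 43.6 CPM, and no member reached 10 CPM in them. In fibroblast-like cells 32 members in motor cortex and 33 in striatum reached 10 CPM, and 20 reached 100 CPM in each region.

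**Figure D1:**
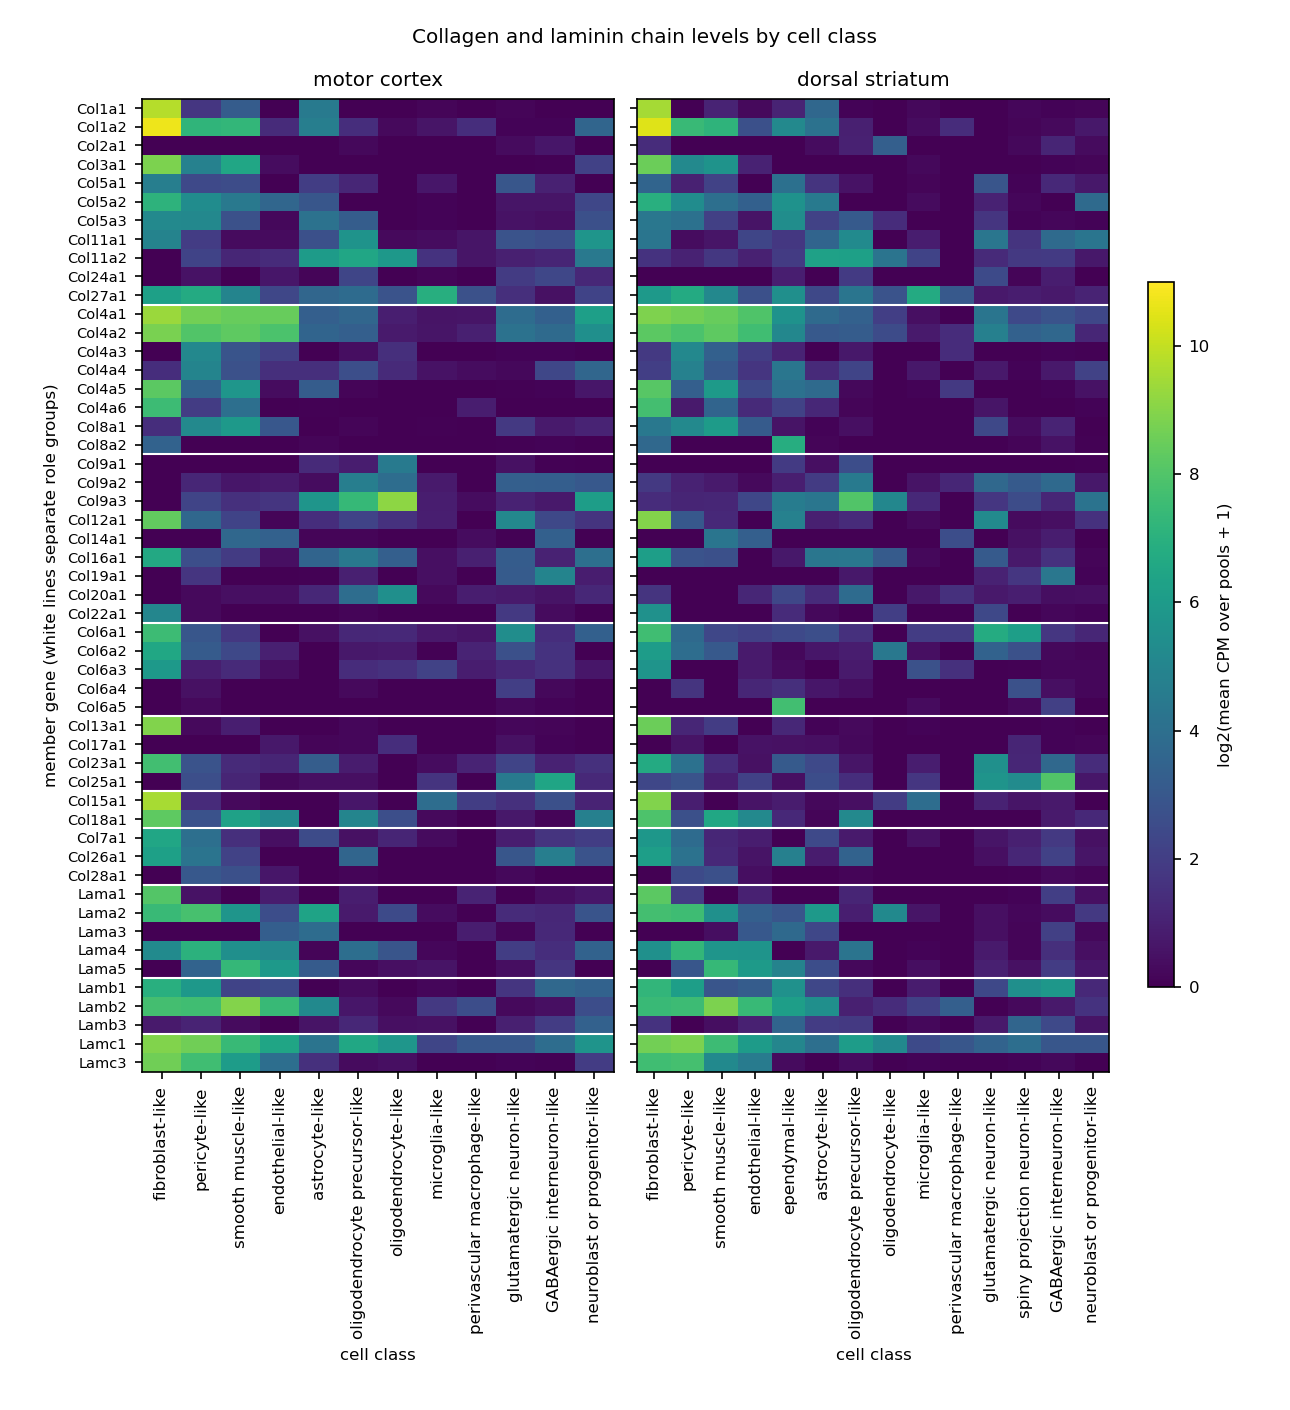
Mean level of 52 of the 53 members (rows, grouped by protein family) in each cell class (columns) of motor cortex and dorsal striatum, as colour on a scale of log2(mean CPM + 1). Brighter colours are higher. The fibroblast-like columns are bright for most families, while Col25a1 and Col19a1 stand out in GABAergic interneuron-like cells, Col9a3 in the oligodendrocyte lineage and Col6a5 and Col8a2 in striatal ependymal-like cells.

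By mean level, 27 of the 53 members were highest in fibroblast-like cells in motor cortex, and for 15 of these no pool of the next class overlapped. Of all genes that reached a mean of 10 CPM in some class of motor cortex, 7.09% were highest in fibroblast-like cells and 1.11% were so without overlap, and 45 members reached that level. In striatum 22 were highest there, 11 without overlap, against 5.49% and 0.815% of genes, with 47 members at that level. The class with the highest mean was the same in both regions for 31 members, of which 21 were highest in fibroblast-like, 4 in smooth muscle-like, 3 in pericyte-like and 2 in GABAergic interneuron-like cells and 1 in oligodendrocyte precursor-like cells. These counts are over all 53 members at any level, and no matching share over all genes was taken for them. Col17a1, Col24a1, Col28a1, Col2a1 and Col6a4 stayed under 10 CPM in every class, and the other 48 reached it in at least 1.

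Among fibrillar collagens, the chains of type I collagen, the main collagen of connective tissue, marked fibroblast-like cells most sharply. Col1a2 read 1053, 1843 and 2118 CPM (lowest, median and highest pool) in fibroblast-like cells of motor cortex and 736, 1446 and 2044 in striatum. No pool of another class reached these values. In motor cortex the mean was 10.9 times that of the next class, smooth muscle-like cells (154 ± 68.3), and in striatum 8.02 times that of pericyte-like cells (176 ± 91.4). A Col1a2 UMI was found in 89.9% of 296 cortical and 83.2% of 273 striatal fibroblast-like cells, with median depths of 1984 and 2069 UMIs. Microglia-like cells, which should not make it, had one in 0.0786% and 0.0596% of cells at 1820 and 1820.5 UMIs. Col1a1, its partner chain, read 330, 1003 and 1266 CPM in motor cortex and 396, 727 and 1047 in striatum, again in fibroblast-like cells. Its next class was astrocyte-like cells, at 21.9 and 11.9 CPM. Col3a1, the fibril chain of soft tissue and vessel walls, varied more between pools. It read 123, 331 and 1277 CPM in fibroblast-like cells of motor cortex and 102, 402 and 643 in striatum, with the highest value in motor cortex early replicate 2, and 90.1 ± 109 and 49.8 ± 26.0 CPM in smooth muscle-like cells. Col5a2, a chain of the type V collagen that sits inside type I fibrils, read 135 ± 80.7 and 121 ± 65.6 CPM in fibroblast-like cells.

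Several collagens outside the fibrillar family also had their highest mean in fibroblast-like cells. Col15a1, a multiplexin of the zone next to basement membranes, read 392, 858 and 928 CPM in fibroblast-like cells of motor cortex and 147, 571 and 724 in striatum, 53.0 and 34.5 times the next class. Its relative Col18a1, whose C-terminal fragment is endostatin, was less restricted, with 310.2 ± 141 and 245 ± 108 CPM in fibroblast-like cells, 76.8 ± 36.4 and 94.2 ± 20.9 in smooth muscle-like cells, 37.4 ± 10.9 and 35.5 ± 16.7 in endothelial-like cells, and 31.1 ± 11.2 and 35.1 ± 15.4 in oligodendrocyte precursor-like cells. Col13a1, a membrane-spanning collagen, read 476 ± 181 and 365 ± 151 CPM in fibroblast-like cells, and Col12a1, which decorates type I fibrils, 328 ± 115 and 491 ± 214. Of the type VI chains, which assemble into beaded filaments, Col6a1 read 184 ± 77.3 and 198 ± 114 (but also 108 ± 41.8 in striatal glutamatergic neuron-like cells, n = 4, whose pools overlap with these), Col6a2 92.9 ± 38.9 and 67.1 ± 23.0, and Col6a3 61.6 ± 47.1 and 50.8 ± 29.8. The membrane-spanning Col23a1 read 199.8 ± 54.6 CPM in motor cortex and 103 ± 50.6 in striatum, where its 6 pools ran from 59.2 to 184.5. Smaller members of the fibroblast-like profile, at means of 31.6 to 98.1 CPM in motor cortex, were Col16a1, Col7a1 (the anchoring fibril collagen), Col26a1 and Col22a1. The fibrillar Col5a1 was low, with a mean of 24.7 CPM in fibroblast-like cells of motor cortex, whose pools began at 0, and in striatum it was highest in ependymal-like cells (15.5 against 10.52 CPM, overlapping).

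Type IV collagen, the network former of basement membranes, was shared by 4 vascular and meningeal classes. Col4a1 read 233, 709.6 and 954 CPM in fibroblast-like cells of motor cortex, 51.4, 439.8 and 859.5 in pericyte-like cells, 148, 406 and 513 in smooth muscle-like cells, and 137, 324 and 763 in endothelial-like cells. In striatum the medians of these classes were 616, 549, 431 and 312 CPM. All these ranges overlap, so the order of the means (648, 406, 350.4 and 352 CPM in motor cortex) is within the spread over pools. In the second barcode set alone the 4 means were 806, 571, 445 and 449.7 CPM in motor cortex and 649.8, 569, 456 and 323 in striatum. In that set the striatal pools of the 4 classes followed this order without overlap. In motor cortex only fibroblast-like and smooth muscle-like pools were apart, and the other pairs of these classes overlapped. Glutamatergic neuron-like cells of motor cortex read 13.9 ± 3.55 CPM and microglia-like cells 0.494. Col4a2, which forms trimers with Col4a1, read 435 ± 168 CPM in fibroblast-like, 311 ± 63.4 in smooth muscle-like, 259 ± 163 in pericyte-like and 238 ± 120 in endothelial-like cells of motor cortex. In striatum its mean was highest in smooth muscle-like cells (309 ± 66.7, against 296.5 ± 168 in fibroblast-like cells), with overlapping pools. Col4a5 and Col4a6, which are encoded together on the X chromosome, were concentrated in fibroblast-like cells instead. Col4a5 read 196, 289 and 426 CPM there in motor cortex and 61.3, 345 and 434 in striatum, against means of 54.3 and 62.2 in smooth muscle-like cells. Col4a6 read 187 ± 49.8 and 209 ± 95.6 against 15.1 and 10.6 in the same order. Col4a3 and Col4a4, known from kidney and lung basement membranes, were low throughout and highest in pericyte-like cells, at 34.3 ± 21.0 and 30.6 ± 18.04 CPM in motor cortex and 33.7 ± 23.8 and 27.5 ± 17.5 in striatum. Col8a1, a short-chain network collagen of vessel walls, read 61.2 ± 20.9 and 63.9 ± 16.9 CPM in smooth muscle-like cells.

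**Figure D2:**
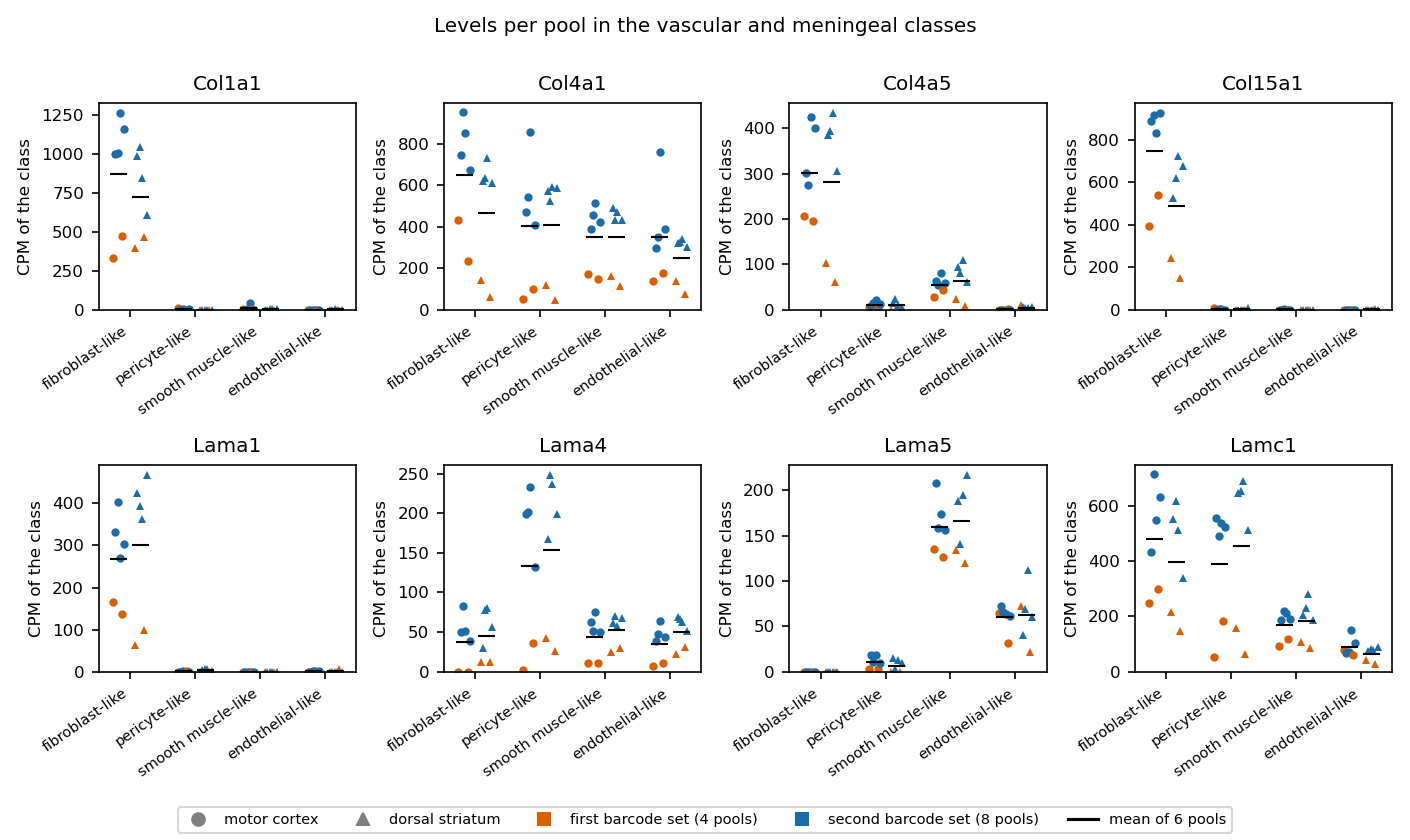
Level per pool (CPM, linear axis from 0) of 8 members in the 4 vascular and meningeal classes, with circles for motor cortex, triangles for dorsal striatum, orange for the first and blue for the second barcode set, and a line at the mean of 6 pools. In vascular classes the 4 pools of the first set form the low end for most members shown, as for Col4a1 in pericyte-like cells, where they lay between 45.1 and 116 CPM and the 8 others between 408 and 860.

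Laminin alpha chains divided the vascular classes. Lama1, the chain of the meningeal and embryonic basement membrane, reached a mean of 10 CPM in fibroblast-like cells alone, with 137, 286 and 403 CPM in motor cortex and 63.8, 378 and 468 in striatum, with next-class means of 1.14 and 3.17 CPM. Lama2, the muscle and astrocyte endfoot chain, read 22.0, 279.9 and 332 CPM in pericyte-like cells of motor cortex (mean 222 ± 125) and 188 ± 106 in striatum, and 173 ± 81.9 and 208 ± 98.7 in fibroblast-like cells. Astrocyte-like cells held Lama2 at 67.5, 81.2 and 105 CPM in motor cortex and 17.6, 67.6 and 78.3 in striatum. Lama4, the chain common to all endothelial basement membranes, was highest in pericyte-like cells (134 ± 95.5 and 153 ± 96.9), with 35.04 ± 21.99 and 50.6 ± 19.6 CPM in endothelial-like cells. Lama5, the chain of arterial and mature vessel basement membranes, read 126, 158 and 208 CPM in smooth muscle-like cells of motor cortex and 119, 165 and 217 in striatum. Endothelial-like cells followed with 31.1, 64.1 and 72.9 CPM in motor cortex, and with 21.7, 64.8 and 112 in striatum, below every smooth muscle-like pool of the same region. Lama3, known from epithelia, stayed at 13.6 CPM in cortical astrocyte-like cells, 8.85 and 7.23 in endothelial-like cells and 12.4 in ependymal-like cells.

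As shares of all laminin alpha UMIs in a class, Lama1 made up 57.8% ± 9.46 in fibroblast-like cells of motor cortex and 52.2% ± 7.56 in striatum. Lama2 made up 65.6% ± 11.0 and 55.9% ± 5.004 in pericyte-like cells and 79.3% ± 3.14 and 84.6% ± 6.89 in astrocyte-like cells. Lama5 made up 65.6% ± 13.04 and 63.4% ± 4.97 in smooth muscle-like cells and 55.5% ± 8.86 and 46.6% ± 13.8 in endothelial-like cells, with Lama4 next at 29.5% and 39.4%. In oligodendrocyte precursor-like cells 89.7% ± 4.11 and 90.5% ± 6.35 of alpha UMIs were Lama4, over 5 pools with enough UMIs in each region. These shares set different genes side by side and take 1 UMI as 1 molecule.

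**Figure D3:**
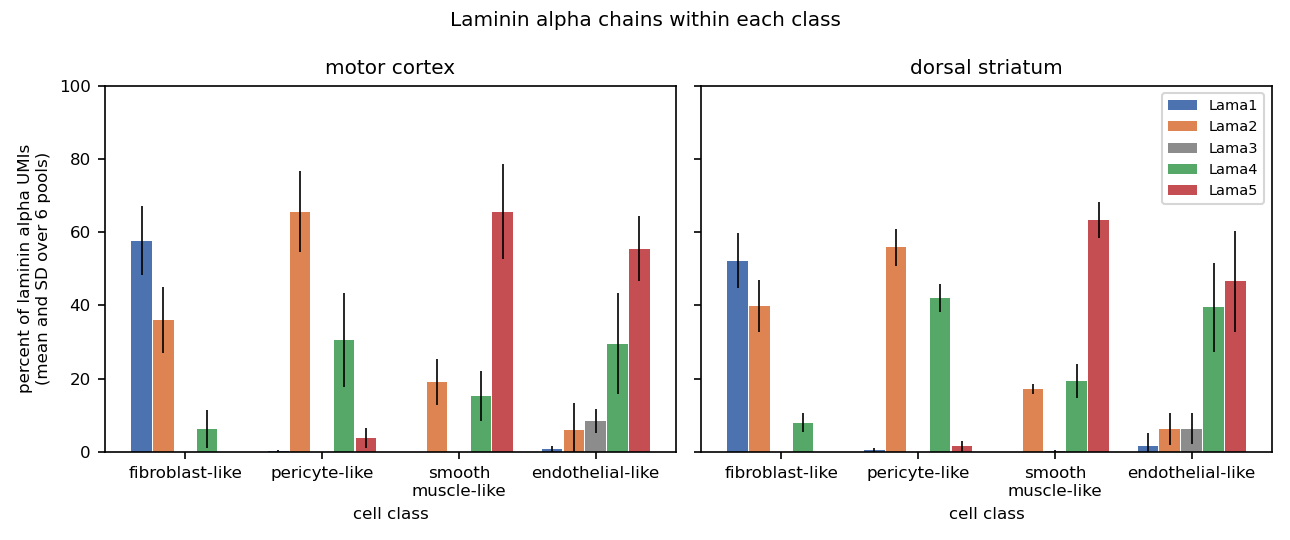
Share of laminin alpha UMIs (percent) taken by Lama1 to Lama5 in 4 cell classes of motor cortex and dorsal striatum, as mean (bars) and SD (lines) over 6 pools. The largest mean share belongs to Lama1 in fibroblast-like, Lama2 in pericyte-like and Lama5 in smooth muscle-like and endothelial-like cells, in both regions.

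Beta and gamma chains were less divided. Lamb2 was the main beta chain of the vessel wall, at 234, 572 and 627 CPM in smooth muscle-like cells of motor cortex and 452 ± 152 in striatum. It took 99.2% and 98.7% of beta UMIs there and 97.6% and 93.4% in endothelial-like cells, but 63.5% ± 12.6 and 52.5% ± 10.1 in fibroblast-like cells, where Lamb1 read 124 ± 72.04 and 149 ± 102.5 CPM (the shares over the 5 pools of each region with at least 10 beta UMIs). A Lamb2 UMI was found in 59.2% and 58.3% of smooth muscle-like cells (medians of 2080 and 2102 UMIs), and in 0.511% and 0.676% of microglia-like cells at 1820 and 1820.5 UMIs. Lamc1, the common gamma chain, read 480.3 ± 186 and 398 ± 192 CPM in fibroblast-like cells and 391 ± 217 and 455 ± 274 in pericyte-like cells, followed by smooth muscle-like cells (169.9 ± 52.5 and 183 ± 74.3) and oligodendrocyte precursor-like cells (91.8 ± 17.3 and 66.9 ± 24.9). Lamc3, the less widespread gamma chain, read 395 ± 167 and 196 ± 134 CPM in fibroblast-like and 198 ± 129 and 216 ± 146 in pericyte-like cells. In the last class its lowest pools, both of the first barcode set, were at 9.79 and 6.44 CPM.

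Set against one another pool by pool, fibroblast-like cells exceeded each vascular class for many members. These clusters come from the same cells as the levels, so the counts describe them and are not a test. A gene was counted where the 6 pools of a class all lay above the 6 of the other and its mean reached 10 CPM in one of them. Against pericyte-like cells this held for 16 of 36 members in motor cortex (4.4% of 10676 genes) and 15 of 35 in striatum (4.13%), and the reverse for 2 (Lama5 and Col4a3, 4.69%) and 0 (2.93%). Against smooth muscle-like cells it held for 21 of 35 (8.97%) and 17 of 35 (7.7%), with the same 3, Lama5, Col8a1 and Col14a1, in reverse in each region (8.36% and 7.32%). Against endothelial-like cells it held for 23 of 33 (10.8%) and 22 of 34 (7.17%), with 1 member, Lama5, in reverse in each region (9.92% and 8.57%). Pericyte-like cells lay above endothelial-like cells for 10 of 22 members (12.1%) and 6 of 23 (5.85%), with 2, Col18a1 and Lama5, in reverse in each region (8.56% and 8.1%), and smooth muscle-like above endothelial-like cells for 9 of 17 (14.1%) and 8 of 17 (10.1%), with none in reverse (13.4% and 12.1% of genes). Between pericyte-like and smooth muscle-like cells, 2 of 24 members (6.97%) and 1 of 26 (4.86%) were higher in the former and 4 (5.3%) and 4 (5.61%) in the latter.

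With the second barcode set alone, 4 pools a region, fibroblast-like exceeded pericyte-like cells for 22 of 36 members (11.0% of genes) in motor cortex and 22 of 35 (10.8%) in striatum. Pericyte-like cells then exceeded them for 7 (13.4%) and 6 (15%), with Lama4, Lama5, Col8a1, Col4a3 and Col4a4 among these in both regions. Smooth muscle-like cells exceeded fibroblast-like cells for the same 4 members in each region, Lamb2, Lama5, Col8a1 and Col14a1 (14.3% and 15.4% of genes), against 29 of 34 (16.5%) and 26 of 35 (16.5%) the other way. Pericyte-like cells then exceeded smooth muscle-like cells for 10 of 25 members (19.5%) in motor cortex and 15 of 25 (22.2%) in striatum, where all pools had given 2 and 1, and the reverse held for 7 (11.6%) and 6 (12.8%). All 10 were among the 15, Lama2, Lama4, Lamc1, Lamc3, Col4a3 and Col4a4 with them, and Lamb2, Col18a1, Lama5, Col4a5, Col14a1 and Col4a6 were higher in smooth muscle-like cells in both regions. Endothelial-like cells were exceeded by fibroblast-like cells for 28 of 33 members in each region (20% and 18.1%), with 2 (17.5%) and 1 (18%) in reverse. Pericyte-like cells exceeded them for 18 of 23 (27.9%) and 19 of 23 (26.6%), where all pools had given 10 and 6, with 3 (17.7%) and 2 (17.3%) in reverse. Smooth muscle-like cells exceeded them for 13 of 18 in each region (23.7% and 22%), with 0 in reverse (21.8% and 22.4%).

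Some members had their highest level in glia. Col9a3, a fibril-associated chain known from cartilage, read 81.5, 185 and 213 CPM in oligodendrocyte precursor-like cells of motor cortex and 166, 279 and 322 in striatum. Within that class it followed a cluster led by Enpp6, a marker of newly forming oligodendrocytes, where Col9a3 read 432 ± 162 CPM in motor cortex (571 cells) and 591 ± 132 in striatum (614 cells), against 91.8 to 137 CPM in the other clusters of the class. A cortical cluster of 203 oligodendrocyte-like cells (leading genes 9630013A20Rik, Mag and Cldn11) read 639 ± 255 CPM over 4 pools, and made the cortical oligodendrocyte-like class read 559 ± 255 CPM (n = 5) against 33.3 ± 20.5 (n = 4) in striatum. At a coarser clustering this cluster left the class, and the cortical value fell to 24.04 CPM. Col20a1 moved with it, from 44.2 to 2.13 CPM. Col9a3 shares exonic bases with Tcfl5 on the opposite strand. The fibrillar chains Col11a1 and Col11a2, also cartilage collagens, read 49.3 ± 11.5 and 90.7 ± 34.9 CPM in oligodendrocyte precursor-like cells of motor cortex, and Col11a2 also 65.2 ± 24.1 and 76.4 ± 34.8 in astrocyte-like cells of the 2 regions. Col27a1, a fibrillar collagen, was the only member with a mean of 100 CPM in microglia-like cells, at 92.2, 115 and 146 CPM in motor cortex and 68.5, 102 and 135 in striatum. Its level in pericyte-like cells was similar (105 ± 52.0 and 106 ± 62.7), and the ranges overlap. Ependymal-like cells, which line the ventricle and were found in striatum only, held Col6a5 at 161, 185 and 280.4 CPM, which was 62.5 times the next class, and Col8a2 at 80.2, 116 and 158 CPM, both above every pool of the other classes.

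Of the neuron classes, a mean of 10 CPM was reached by 5 members in cortical and 10 in striatal glutamatergic neuron-like cells, 6 and 7 in GABAergic interneuron-like cells and 5 in spiny projection neuron-like cells. Col25a1, a membrane-spanning collagen of neurons that was first found in amyloid plaques, read 63.6, 84.8 and 111 CPM in GABAergic interneuron-like cells of motor cortex and 147, 250.5 and 396 in striatum. It was 4.04 and 5.08 times the level of the next class, glutamatergic neuron-like cells, with no overlap. A UMI of Col25a1 was found in 15.95% of cortical and 42.0% of striatal interneuron-like cells (medians of 6437 and 6988 UMIs) and in 0.432% and 0.457% of microglia-like cells. Its clusters differed. The cortical cluster led by Crhbp, Nos1 and Chodl, genes of long-range somatostatin neurons, read 733 CPM (139 cells, pools from 554 to 1019), and the striatal cluster led by Sst, Npy and Nos1 read 497 CPM (897 cells, 284 to 747). Another cortical cluster, led by Yjefn3, Htr3a and Cnr1, read 206 CPM (550 cells, 134 to 256). Col19a1, a fibril-associated collagen, read 29.9 ± 7.81 CPM in cortical and 19.5 ± 5.47 in striatal interneuron-like cells. Its highest clusters were those led by Sst, Pdyn and Cort (63.4 CPM) and by Yjefn3 (59.4) in motor cortex and by Pthlh, Cox6a2 and Kit (62.4) in striatum.

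The last of these, which resembles the parvalbumin-related interneurons of striatum by its leading genes, also had the highest Lamb1 of any neuronal cluster, at 160 CPM (555 cells, pools from 122 to 237). Over all pools this was near the Lamb1 mean of fibroblast-like cells of the same region (149 ± 102.5 CPM, pools from 0 to 313.6). In the second barcode set alone Lamb1 read 195.6 CPM in those fibroblast-like cells. The whole striatal interneuron-like class read 65.7 CPM in that set against 56.42 over all pools. In motor cortex, Col26a1 read 48.7 CPM in interneurons led by Ndnf and Reln, and Col12a1 read 125 ± 14.96 CPM in glutamatergic neurons led by Trhr, Tshz2 and Sla2 and 78.0 ± 14.7 in those led by Foxp2. Col6a1 had its highest class mean in fibroblast-like cells, but it was also the highest member in glutamatergic and spiny projection neuron-like cells. It was 76.6 ± 15.9 CPM in the Foxp2 cluster. In striatum Col6a1 read 99.0 ± 23.8 CPM in spiny projection neurons led by Pdyn, Isl1 and Drd1 (direct pathway genes) and 49.0 CPM in those led by Gpr6, Penk and Adora2a (indirect pathway genes).

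**Figure D4:**
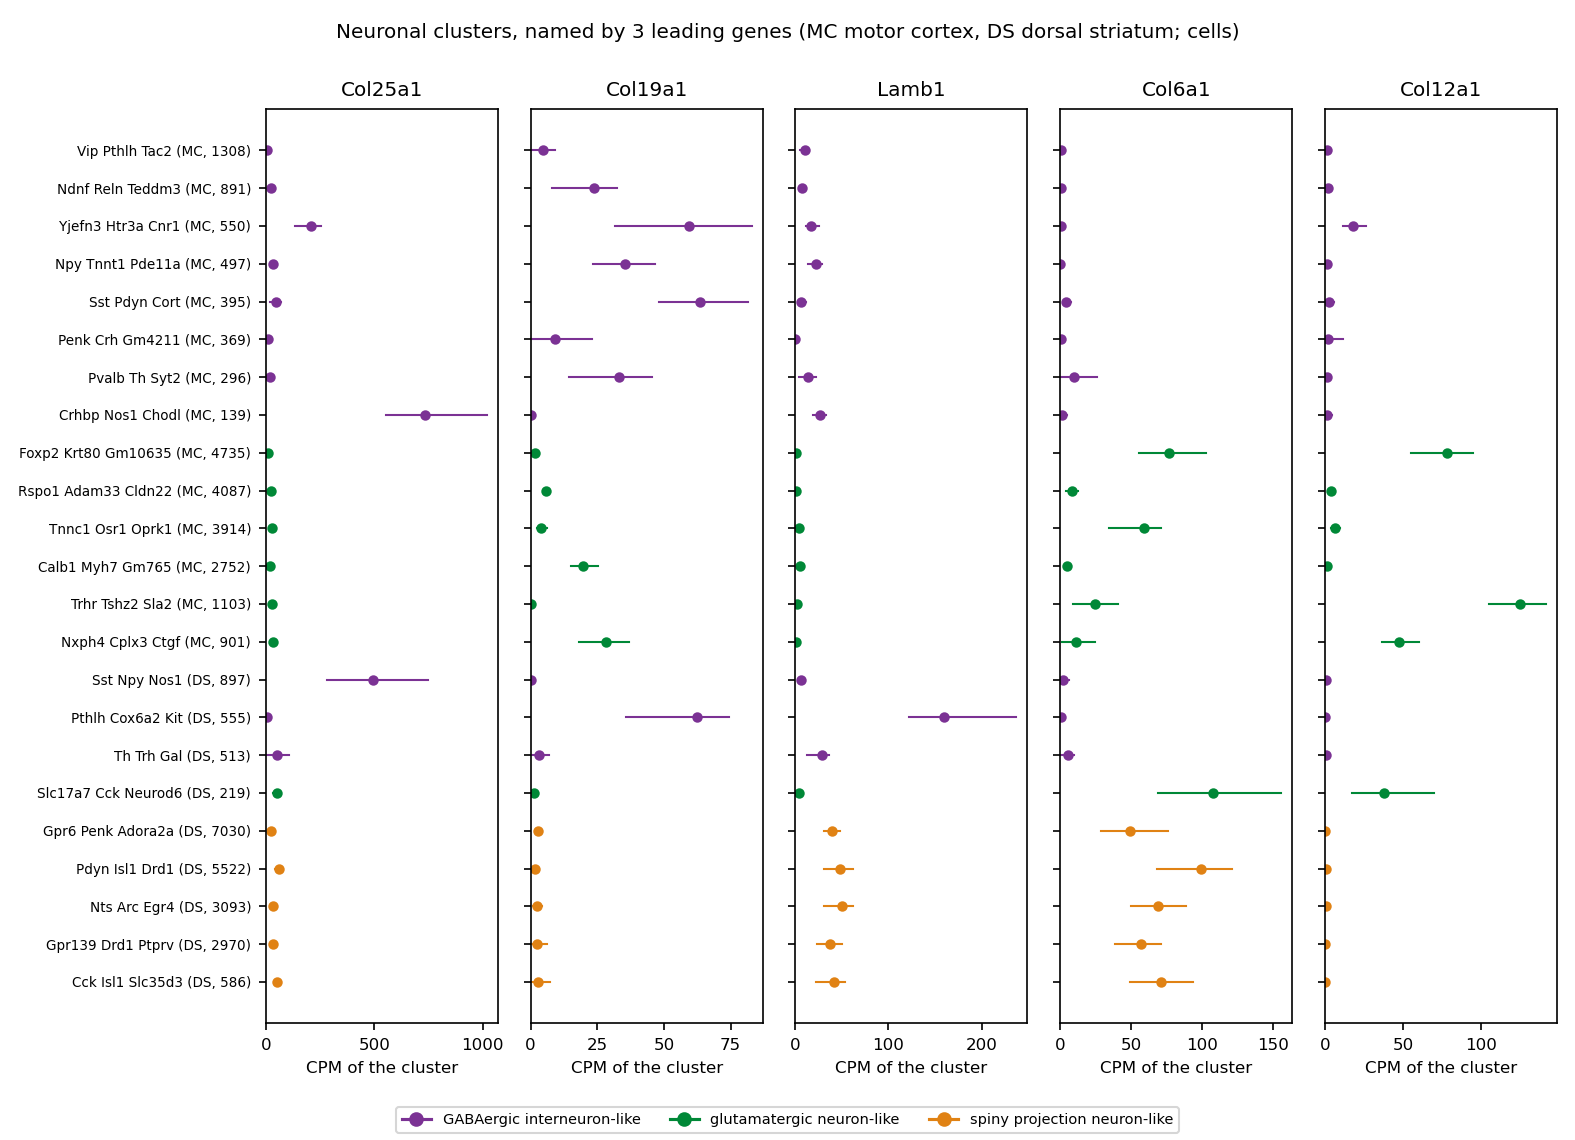
Level (CPM) of Col25a1, Col19a1, Lamb1, Col6a1 and Col12a1 in each named neuronal cluster (rows, by 3 leading genes, with region and number of cells), with points for the mean over pools, lines from the lowest to the highest pool and colours for the class. Col25a1 is highest in the Crhbp, Nos1, Chodl and the Sst, Npy, Nos1 clusters and Lamb1 in the Pthlh, Cox6a2, Kit cluster.

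Chains that assemble together, and Col1a2 with Col3a1, which belong to different collagen types, were compared over the 26 class and region means. These log2 values share libraries and depth, so that the coefficients are descriptions. Col4a1 and Col4a2 had a Pearson coefficient of 0.98, and each was the most similar of the 52 other members to its partner. Col4a5 and Col4a6 had 0.92 and Col1a2 and Col3a1 0.91, each partner ranking 2 for the other. Lower were Col1a1 and Col1a2 with 0.78 (ranks 6 and 12), Lamb2 and Lamc1 with 0.70 (11 and 11), Col6a1 and Col6a2 with 0.69 (4 and 6), Col4a3 and Col4a4 with 0.67 (7 and 2) and Lamb1 and Lamc1 with 0.54 (17 and 23). The median Pearson coefficient over all 1378 pairs of members was 0.21. By ranks (Spearman's coefficient) Col4a1 and Col4a2 had 0.935, Col4a5 and Col4a6 0.70 and Lamb2 and Lamc1 0.61. Col4a3 and Col4a4 had 0.55, Col1a1 and Col1a2 0.54, Col1a2 and Col3a1 0.54, Lamb1 and Lamc1 0.48, and Col6a1 and Col6a2 0.43. The place of Col1a2 and Col3a1 above Col1a1 and Col1a2 thus depended on the measure. Exons of Col4a1 and Col4a2 overlap at their starts on opposite strands.

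No member was called between training stages. With edgeR's quasi-likelihood test and Benjamini-Hochberg adjustment over all genes of a class, 0 of 146 pairs of member and class in motor cortex passed an adjusted p of 0.05 for early against control, late against control or late against early. At that threshold 0.0125%, 0.0616% and 0.0094% of all genes passed. Before adjustment 5, 6 and 4 of the member pairs had p under 0.05, where 3.25%, 4.22% and 2.54% of all genes did. In striatum 0 of 155 pairs passed in each of the 3 comparisons (0.0173%, 0.0191% and 0.00819% of genes), while 7, 12 and 5 had an unadjusted p under 0.05 (5.2%, 6.2% and 6.5% of genes). DESeq2 also called 0 in all 6 (0.0157% to 0.0919% of genes). In each region 48 members could be tested in at least 1 class. Comparisons within a region use some of the same pools. The median log2 change over the members lay between -0.16 and 0.13.

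By adjusted p the member nearest to a call between stages was Col6a5 in striatal interneuron-like cells, at low levels of 1.04 and 0.967 CPM in the control pools, 5.51 and 5.73 in the early pools and 3.46 and 2.62 in the late pools. The early pools were the highest (log2 change over control 2.57, SE 0.64, adjusted p = 0.316 by edgeR). Col3a1 in smooth muscle-like cells of motor cortex was not called with all pools. It read 38.0 and 32.9 CPM in the control pools, 90.1 and 308 in the early pools and 30.8 and 40.8 in the late pools. Both early pools lay above the other 4. The log2 change from control to early was 2.36 (SE 0.65, adjusted p = 0.894 by edgeR) and from early to late it was -2.22 (SE 0.59, adjusted p = 0.867). Col3a1 passed in 6 alternatives of the first comparison and 5 of the other, and all of these but the fit with no filter on low counts left 1 pool in some stage, whose spread is then taken from the other pools. In the second barcode set alone, with 1 control, 1 late and 2 early pools, the changes were 2.53 (SE 0.43) and -2.13 (SE 0.36). It did not pass without early replicate 2. The same pool that was high here, early replicate 2, also had the outlying Col3a1 value of 1277 CPM in fibroblast-like cells. In striatal smooth muscle-like cells Col3a1 read 12.7 and 29.2 CPM in controls, 87.6 and 55.8 in early and 59.7 and 53.8 in late pools, and there every trained pool lay above the controls. The change from control to early was 1.63 (adjusted p = 0.697 by edgeR).

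Other calls appeared mostly when a pool was left out. Without motor cortex control replicate 2, 9 members in pericyte-like cells were higher in early than in control pools and 7 in late than in control pools, where 4.84% and 7.01% of the genes tested in that class were called as higher in the same fits. Lama4, Lamc3 and Lama2 were among both (log2 changes of 4.70, 3.06 and 2.60 for early against control). The remaining control pool then belonged to the first barcode set, and the term for the set rested on the late pools alone. Lama4 read 2.45 CPM in that control pool and 35.6 in late replicate 1, the other pool of the first set, against 132 to 233 in the 4 pools of the second set. Leaving out motor cortex late replicate 2 gave 7 members in pericyte-like cells as higher in late than in control pools and 7 as higher in late than in early pools (6.28% and 3.7% of genes). Col4a1 and Col4a2 in the neuroblast or progenitor-like class of motor cortex were called as higher in early than in control pools in 5 alternatives and than in late pools in 4 and 5, with Col4a1 at 390.7 CPM in early replicate 2 and 0 to 18.9 in the other pools. In striatal interneuron-like cells Col25a1 read 147 and 224 CPM in controls, 396 and 292 in early and 188 and 277 in late pools. The early pools were the highest, by 0.61 on the log2 scale over controls (adjusted p = 0.508 by edgeR), and among the alternatives run the change was called only without early replicate 2 (0.79, adjusted p = 0.0339 by edgeR). Lama2 in striatal astrocyte-like cells was called as lower than in controls without control replicate 2 (-1.69 for early and -1.83 for late) and without late replicate 2 (-1.83 for late). In the same fits 2.23%, 2.44% and 1.9% of genes of that class were called as lower. Late replicate 1, of the first barcode set, read 17.6 CPM from 13 UMIs against 58.5 to 78.3 in the other 5 pools, and it entered all 3 fits. Without control replicate 2 the only control pool was of the first set too, and the term for the set rested on the late pools. Lama5 in striatal endothelial-like cells was called as lower in late than in early pools without late replicate 2 (-2.83, with 0.489% of genes lower).

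Between regions, most calls of members fell in interneuron-like, astrocyte-like and neuroblast or progenitor-like cells, classes in which many genes of all kinds were called. Over 10 classes and all 12 pools, 39 of 129 pairs of member and class passed edgeR's test, 28 higher in motor cortex and 11 in dorsal striatum, against 17.6% of all genes (8.29% higher in motor cortex and 9.32% in striatum). Of the 43 members tested, 30 were called in at least 1 class, a count for which no matching share over all genes was taken. Calls fell on 15 of 19 members in GABAergic interneuron-like cells (33.2% of genes), 8 of 16 in astrocyte-like cells (30.5%), 14 of 14 in neuroblast or progenitor-like cells (50.4%), 1 of 22 in fibroblast-like cells (2.32%) and 1 of 15 in oligodendrocyte precursor-like cells (6.08%). None was called of 16 members in pericyte-like cells (1.04%), 15 in smooth muscle-like (0.904%), 8 in endothelial-like (1.41%) and 4 in microglia-like cells (1.06%), where few genes of any kind were called. For 15 of the 39 the 6 pools of one region all lay above those of the other, where this held for 34.7% of all called pairs of gene and class. In interneuron-like cells it held for 10 of the 15 called members and 39.4% of called genes. The classes differ in their clusters: neurons led by Sst, Npy and Nos1 made up 45.7% of striatal interneuron-like cells, while the similar cortical cluster held 139 of 4445.

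In interneuron-like cells the 5 called members with the smallest adjusted p separated the regions without overlap. Lamb1 read 8.74, 12.6 and 14.5 CPM in motor cortex and 36.3, 59.1 and 80.5 in striatum, a log2 difference of -2.32 (SE 0.11, adjusted p = 2.63e-11 by edgeR). Over the whole class Col25a1 was also higher in striatum by 1.63 on the log2 scale (log2 difference -1.63, SE 0.15, adjusted p = 1.49e-07 by edgeR). But the cortical cluster led by Crhbp, Nos1 and Chodl had a higher Col25a1 mean than the striatal cluster led by Sst, Npy and Nos1. The pools of these clusters overlapped. The part of the cluster shares in the class difference was not tested. Col23a1 was higher in striatum too, at 0, 1.09 and 2.08 CPM in motor cortex and 5.62, 12.3 and 17.96 in striatum. Col6a5 was barely read in motor cortex (0, 0.0541 and 0.219 CPM) and read 0.967, 3.04 and 5.73 CPM in striatum, where ependymal-like cells hold it at 201 CPM. The part of their RNA in this difference was not tested. Col26a1, a small secreted collagen, was the other way round with 17.7, 27.1 and 31.1 CPM in motor cortex and 1.87, 3.61 and 4.24 in striatum (2.83, SE 0.18, adjusted p = 7.9e-10 by edgeR). Also higher in cortical interneurons, without overlap, were Col14a1 (3.31), Col12a1 (3.18), Col15a1 (2.91), Col4a4 (2.37) and Lamc1 (0.96). Of these only Lamc1 had a mean above 10 CPM in motor cortex, with pools at 12.99 to 15.66 against 5.62 to 8.604 CPM in striatum. With overlapping pools, Col24a1 and Col19a1 were higher in motor cortex and Col11a1, Col9a2 and Lama3 in striatum.

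In astrocyte-like cells Col9a3 read 34.95, 51.8 and 70.1 CPM in motor cortex and 9.47, 19.5 and 25.8 in striatum (1.46, SE 0.19, adjusted p = 1.36e-05 by edgeR). Col5a3, a type V chain, and Lama3 were higher in motor cortex without overlap too, at medians of 17.1 against 3.34 and 11.8 against 3.47 CPM. Col27a1, Col1a1 and Col1a2 were higher in motor cortex and Col5a2 and Col11a1 in striatum, with overlapping pools. With all pools 6 of 16 members were called higher in motor cortex and 2 in striatum. In the second barcode set alone it was 2 and 3 of 18 (23.9% of genes called). It was 2 and 1 of 13 both with a stricter cell filter (24.9%) and without motor cortex control replicate 2 (26.4%). The striatal class included a cluster of 1237 cells led by Gfap and Thbs4. In oligodendrocyte precursor-like cells Col9a3 went the other way, being higher in striatum (log2 difference -0.75, SE 0.12, adjusted p = 0.000333 by edgeR), but it was not called at the coarser clustering (-0.45) or without the barcode set term. The cluster led by Enpp6, in which Col9a3 had its highest mean within the class, made up 9.51% of the cortical and 18.8% of the striatal class, and its part in the difference was not tested. In fibroblast-like cells Lamc3 read 185.5, 441 and 568.4 CPM in motor cortex and 38.3, 217 and 369 in striatum. The pools overlap, and the difference of 0.97 (SE 0.22, adjusted p = 0.0182 by edgeR) was not called in the second barcode set alone (0.81, adjusted p = 0.075) or without the barcode set term (0.90, adjusted p = 0.559).

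The neuroblast or progenitor-like class held different cells in the 2 regions, with 438 cells in motor cortex, of which 268 were in a cycling cluster led by Ube2c, Top2a and Pbk, and 9093 in striatum. Of 12091 genes tested in the class, 2892 were called as higher in motor cortex and 3201 in striatum. The 14 calls of members, 13 of them higher in motor cortex, included Col16a1 (6.22), Col4a2 (4.55), Lama4 (4.54), Col11a2 (4.37), Col18a1 (4.02) and Col4a1 (3.71). Only Lamc1 and Col11a2 had pools without overlap, against 34.2% of called genes. The difference of Col4a1 rested on motor cortex early replicate 2, and fell to 0.60 without it, and that of Col4a2 to 1.34. In that pool the cycling cluster had 70 cells and 113 Col4a1 UMIs in 9 of them, with 72 of these in 7 cells that carried at least 3 pericyte markers and 40 in 1 cell that carried at least 3 endothelial markers (a cell may carry both). The other pools had 0 to 2 Col4a1 UMIs in that cluster. Without the whole class, 25 of 115 pairs were called (12.2% of genes), 15 higher in motor cortex and 10 in striatum.

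Of 6 batches as the labels name them, 2 held a pool of each region (early replicate 2 and late replicate 2). Their 4 pools are among the 12 that gave the calls, so a like direction is partly built in. Of the 39 called pairs, 33 had the same direction in both of these batches, as had 86.6% of all called pairs of gene and class. In interneuron-like cells it was 15 of 15 (93.5% of called genes), in astrocyte-like cells 7 of 8 (86.6%) and in neuroblast or progenitor-like cells 9 of 14 (80.1%). Lamb1 in interneuron-like cells read 12.3 against 64.2 CPM in the first of these batches and 14.5 against 54.99 in the second (motor cortex against striatum). Lamc3 in fibroblast-like cells read 539.8 against 265 and 449 against 369.

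**Figure D5:**
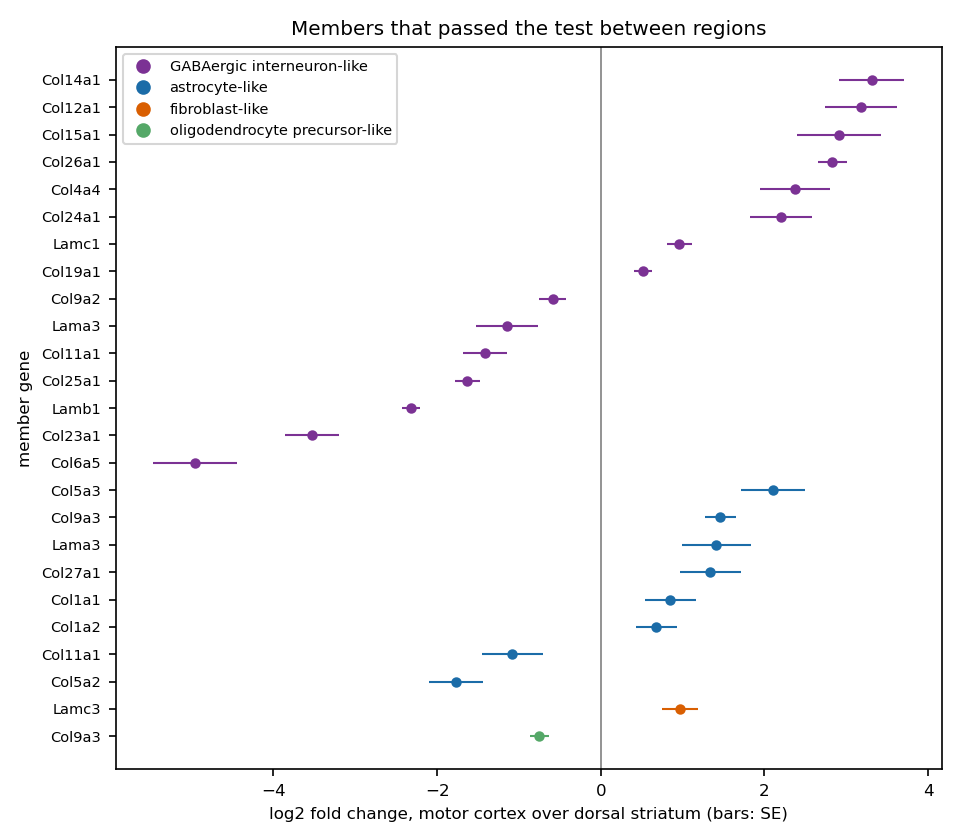
Log2 difference of motor cortex and dorsal striatum (positive is higher in motor cortex) with its standard error for the 25 called pairs of member and class outside the neuroblast or progenitor-like class. Lamb1, Col25a1, Col23a1 and Col6a5 in interneuron-like cells lie on the striatal side, Col26a1, Col14a1 and Col12a1 on the cortical side.

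Hemispheres were compared within the trained pools, contralateral against ipsilateral to the trained forelimb, with the pool as a block. Of 106 pairs of member and class in motor cortex and 93 in striatum, 0 were called by edgeR's test (0.0583% and 0.0177% of genes), while 7 and 2 had an unadjusted p under 0.05 (4.84% and 3.78% of genes). DESeq2 also called 0 (0.00389% and 0.0106% of genes). The fit without the pool block called 0 of 77218 and 0 of 84932 genes, so its 0 says nothing particular to the members. Col18a1 in smooth muscle-like cells of motor cortex came nearest. In the 4 trained pools it read 123, 198, 55.4 and 74.7 CPM contralaterally and 53.6, 85.97, 38.3 and 50.6 ipsilaterally, so the contralateral value was the higher in each pool (log2 difference 0.97, SE 0.23, adjusted p = 0.0998 by edgeR). Col26a1 in cortical interneuron-like cells was lower contralaterally in each pool, at 22.3, 23.0, 16.3 and 22.9 against 30.3, 31.0, 24.5 and 37.5 CPM (-0.52, SE 0.12, adjusted p = 0.109 by edgeR).

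Genes that make, bind or remove these proteins were followed as 4 groups: collagen making (19 genes), receptors (14), turnover (9) and other basement membrane proteins (6). Fibroblast-like cells were highest for 9 of the 19 collagen making genes in motor cortex and 8 in striatum, where 7.09% and 5.49% of all genes at 10 CPM were highest there. Among these were Serpinh1, the collagen chaperone, and Pcolce, which helps to trim procollagen. They were also highest for Nid1, Nid2 and Hspg2, which link the laminin and collagen networks, and for 6 and 5 of the 9 turnover genes. Of the receptors 6 of 14, Itga7, Itga10, Itgb1, Dag1, Ddr2 and Bcam, were highest in smooth muscle-like cells in both regions (5.23% and 4% of genes). Agrn and Fn1 were highest in endothelial-like and Sparc in microglia-like cells. Between regions edgeR called 48 of 239 pairs of these genes and class, where 17.6% of all genes were called: 11 higher and 5 lower in motor cortex of 101 for collagen making, 8 and 6 of 61 for receptors, 6 and 8 of 41 for turnover and 2 and 2 of 36 for other basement membrane. Between stages and hemispheres none of collagen making, receptors and turnover was called. Of the other basement membrane group only Sparc in the cortical neuroblast or progenitor-like class was called, up from control to early (5.19, adjusted p = 0.00692 by edgeR) and down from early to late (-6.40, adjusted p = 0.0184). Sparc averaged 157 ± 312 CPM over the 6 pools of that class (SD above the mean). In early replicate 2 the class includes a cycling cluster with 590 pericyte-marker and 126 endothelial-marker UMIs, against 0 to 4 and 0 to 17 in the other pools. Their part in the change of Sparc was not tested.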

How the data were processed

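The authors deposited raw UMI counts per gene and cell barcode as 1 matrix per library, made with Cell Ranger 3.1.0 on GRCm38 (mm10) per the submitters' processing notes, while the file headers give software version 3.0.2. Barcodes under 500 genes or 1000 UMIs, or above 20% mitochondrial UMIs, were dropped, and 5103 likely doublets were removed (top Scrublet scores, 0.8% per 1000 barcodes). Cells of each region were clustered (scanpy 1.11.5, 2000 variable genes without the members, 40 components, Leiden resolution 1.5) and named where at least 3 markers and 30% of a list were raised. The 30% rule was added after clusters were seen. Counts were summed per pool and class (at least 20 cells) and tested with edgeR 4.0.16 quasi-likelihood fits, with stage, region and barcode set as terms and Benjamini-Hochberg adjustment within a class and comparison (called under 0.05). The pool was a block in the test of hemispheres, whose 2 sides come from the same mice. DESeq2 1.42.0 was an alternative. The tests were also run on simulated counts drawn from the mean levels of a single class, whose outcome is not reported here.

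One member enters the counts and sums but is not reported here by its own values. The members and lists were chosen with earlier results of these data known. Described with values were the 3 highest members of each class, up to 10 called members per comparison by adjusted p, and 24 members listed whatever their values. Other members and clusters named were chosen after their values were seen. Library totals ran from 5260446 to 30470621 UMIs. Counts were not stated to separate overlapping genes. Exonic bases on opposite strands are shared by Col4a1 and Col4a2, Col4a2 and Gm15419, Col9a3 and Tcfl5, and Lama2 and Gm48084. The same holds for Lamc3 and Gm13441, Col15a1 and Gm12426, Col4a3 and C430014B12Rik, Lama3 and Gm29200, and Col22a1 and Gm16308. It also holds for Col5a1 with 2810430I11Rik and Gm13372, and for Col6a4 with Gm36993 and Gm47575. On the same strand, Col3a1 and Gm47302, Col7a1 and Mir711, and Col20a1 and BX649560.1 share such bases.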

Additional observations from a re-analysis of the deposited data

Results flagged for a closer look

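In 6 of 110 levels a single pool lay far from the others of its group by Dixon's criterion, which chance meets in about 1 of 20 groups. Col3a1 in fibroblast-like cells read 1277 CPM in motor cortex early replicate 2 (41 cells, 123 UMIs) and 123 to 498 in the other 5 pools. Col4a1 in neuroblast or progenitor-like cells read 390.7 CPM in the same pool (92 cells, 114 UMIs) and 0 to 18.9 in the others. Col19a1 in GABAergic interneuron-like cells read 9.08 CPM in dorsal striatum late replicate 1 (21 UMIs) against 18.7 to 23.3. Lama2 in astrocyte-like cells read 17.6 CPM in the same pool (413 cells, 13 UMIs) against 58.5 to 78.3. Lama3 in astrocyte-like cells read 28.3 CPM in motor cortex control replicate 1 (125 cells, 7 UMIs) against 7.99 to 13.2. Col23a1 in glutamatergic neuron-like cells read 125 CPM in dorsal striatum control replicate 2 (23 cells, 34 UMIs) against 11.2 to 25.5 in the other 3 pools measured.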

How the results depend on the processing

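Between regions 39 pairs of member and class were called. The number was 19 of 55 pairs with a stricter cell filter (1000 genes, 2000 UMIs, 10% mitochondrial UMIs; 15.6% of all genes called in the same fits), 25 of 115 without the neuroblast or progenitor-like class (12.2%) and 25 to 43 when 1 pool was left out (14.1% to 17.2%), the lowest without dorsal striatum control replicate 2. It was 40 with DESeq2 (18.6%), 38 with RLE factors (17.5%), 37 at resolution 1.0 (16.9%), 29 without the barcode set term (11.6%), 35 of 147 in the second barcode set alone (14.2%) and 55 of 442 with no filter on low counts (8.28%). The fit without the barcode set term kept 29 of the 39 pairs and the second set alone 28. No called pair changed direction. Between stages no pair was called, but in motor cortex early against control gave 3 with no filter on low counts, 3 in the second set alone (1 control and 1 late pool) and 0 to 9 when a pool was left out. Late against early gave 2, 3 and 0 to 7, and late against control 0 to 7 when a pool was left out. Of all genes, 0.07% to 1.22% were called in the motor cortex fits that called a member. The members were Col3a1 in smooth muscle-like cells, Col4a1 and Col4a2 in neuroblast or progenitor-like cells, and members in pericyte-like cells. In dorsal striatum leaving out a pool gave 0 to 1 in each comparison (Col25a1 in interneuron-like, Lama2 in astrocyte-like or Lama5 in endothelial-like cells), where 0.266% to 1.21% of all genes were called in the same fits. The cause was not tested. A fit that leaves a stage with 1 pool assumes that it varies like the others. For hemispheres the fit with the replicate block called 0 members in both regions (0.0583% and 0.0177% of genes). Without the block 0 members and 0% of genes were called, so that fit says nothing particular to the members. Leaving out pools also gave 0 members (0.0169% to 0.0747% of genes). The number of members highest in fibroblast-like cells in both regions was 21 to 22 when a pool was left out (26 to 27 in motor cortex, 22 to 23 in dorsal striatum). No matching share over all genes was taken for these fits. Of 110 levels described, 4 moved beyond the spread over pools at resolution 1.0 (Col9a3, Col11a2, Col20a1 and Lamc1 in cortical oligodendrocyte-like cells) and 1 of 107 with the stricter filter. In the second set alone the levels were 0.483 to 1.69 times those over all pools (median 1.2), and 2 moved over 1.5 times, Col9a3 and Lamc1 in striatal oligodendrocyte-like cells. The levels over all pools contain the second set. Where it gave 4 of 6 pools, the ratio could not rise past 1.5 even if the first set read 0. These ratios therefore do not measure how far apart the 2 sets lie: Col4a1 in pericyte-like cells gave 1.41 in motor cortex and 1.40 in striatum. The second set and the analysis without 1 class were chosen after seeing the data. Small classes limit the precision (as few as 24 fibroblast-like, 20 oligodendrocyte-like and 21 cortical neuroblast or progenitor-like cells in a pool), and the spread over pools includes counting error.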

Other observations

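A striatal cluster of 2349 cells with leading genes Tac2 and Otof stayed unnamed and entered no class. It read Col25a1 at 64.2 CPM and Lamb1 at 59.1 CPM. In the striatal GABAergic class the cluster led by Th, Trh and Gal (513 cells) had the highest Col23a1, at 32.8 CPM with pools from 22.8 to 38.7. Lamb3, the beta chain of epithelial laminins, read 17.95 CPM in the spiny projection neurons led by Nts, Arc and Egr4.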
